A study of Mus musculus with 32 samples.

Results

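The genes described here are 10 genes of core glycolysis, Hk2, Gpi1, Pfkl, Pfkp, Aldoa, Gapdh, Pgk1, Eno1, Pkm and Ldha, in mouse microglia and spinal cord. They were taken by symbol from the Ensembl identifiers of 3 count tables, and all 10 were found in each table, among 74021 gene rows for microglia sorted by LAG-3, 74016 for microglia by genotype and stage and 74021 for spinal cord. All 10 also passed the filter on low counts in each table. The study asked what the inhibitory receptor LAG-3 does in microglia of SOD1G93A mice, which model amyotrophic lateral sclerosis (ALS) through a transgene of mutant human SOD1 (strain B6.Cg-Tg(SOD1*G93A)1Gur/J).

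RNA-seq was available for 32 libraries. In the LAG-3 sort, CD11b+/CD45int cells from lumbar spinal cord gave 4 libraries of wild-type (WT) mice without the transgene, 5 of LAG-3-low and 5 of LAG-3-high cells of SOD1G93A mice. The labels give no age for this sort, and the methods of the study place the SOD1G93A mice at P140, the late symptomatic stage. In the genotype-by-stage experiment, CD11b+/CD45int microglia came from SOD1G93A mice with intact LAG-3 (SOD1G93A/LAG-3+/+) or without it (SOD1G93A/LAG-3-/-) at P120, the early symptomatic stage, and at P140, with 3 libraries per group. Whole lumbar cord was taken from the same genotypes at P140, with 3 libraries each. Every mouse in these last 2 experiments carried the SOD1G93A transgene, so neither holds a non-transgenic control. LAG-3-/- is a targeted disruption (B6.129S6(Cg)-Lag3tm1Doi/J) that is present in all cells of the mouse and not only in microglia. The labels do not say that the libraries of a group came from separate mice, so p-values measure the spread between these libraries, which may be technical in part.

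Glycolysis converts glucose to pyruvate in the cytosol and yields ATP without oxygen, and lactate dehydrogenase then turns pyruvate into lactate while restoring the NAD+ that the pathway consumes. Macrophages and microglia are known to rely more on glycolysis when they are activated. Many of its genes are known targets of the transcription factor HIF-1, which binds a short core motif in DNA under low oxygen or in activated immune cells. In pathway order, Hk2 (a hexokinase) phosphorylates glucose, Gpi1 isomerises glucose-6-phosphate, Pfkl and Pfkp are liver-type and platelet-type subunits of phosphofructokinase, and Aldoa (an aldolase) splits the product. Gapdh, Pgk1, Eno1 (an enolase) and Pkm (a pyruvate kinase) carry out steps of the lower pathway, and Ldha is a subunit of lactate dehydrogenase.

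The promoters were searched for the HIF-1 core motif because HIF-1 is a known regulator of the pathway and most of the 10 genes moved together in several comparisons. The motif was written as ACGTG or GCGTG and searched on both strands (read as CACGT or CACGC on the other strand) in the 250 bases before each transcription start, in RefSeq sequences of build GRCm38.p6. CACGTG holds ACGTG on both strands and was counted on each. A match was present for 9 of 10 genes (90%), compared with 11226 of 27025 genes (41.5%) in the whole RefSeq table, and in 13 of 16 windows of these genes (81.2%), compared with 12679 of 32851 windows (38.6%). Gpi1 had no match in its window. For each of the 9 genes that hold a match, 1 stretch is shown, where matches lie closest together in the window with most of them. The motif is in capitals, 5′ to 3′ on the strand of the gene. The windows of Hk2, Pfkp and Ldha hold 2, 3 and 5 matches, not all of them in the stretch, and matches in other windows are not shown. A match is a run of letters and not a measured binding site. Both forms of the motif hold a CG pair, and the shares of all genes and windows were not matched for base content or for windows per gene. The part of HIF-1 in the levels was not tested.
Hk2 (chr6:82774490-82774518, minus strand): aatgagcacatcCACGTcactgtccgggg
Pfkl (chr10:78009890-78009918, minus strand): atttgtagactgGCGTGcgctccgccttt
Pfkp (chr13:6648778-6648851, minus strand): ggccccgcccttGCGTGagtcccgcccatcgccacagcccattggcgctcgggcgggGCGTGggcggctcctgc
Aldoa (chr7:126799364-126799392, minus strand): tgtggctcgagtCACGTcctagcggggcg
Gapdh (chr6:125165801-125165839, minus strand): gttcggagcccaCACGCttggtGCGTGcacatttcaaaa
Pgk1 (chrX:106186938-106186985, plus strand): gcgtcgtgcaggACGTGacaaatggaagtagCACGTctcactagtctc
Eno1 (chr4:150237099-150237151, plus strand): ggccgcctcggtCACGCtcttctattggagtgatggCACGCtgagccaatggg
Pkm (chr9:59657140-59657168, plus strand): ctccgatccggtCACGTccgcgccgcagc
Ldha (chr7:46845744-46845786, plus strand): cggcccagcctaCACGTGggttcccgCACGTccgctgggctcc

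Lag3 itself was checked first, in CPM, the counts scaled to library size with TMM factors (trimmed mean of M values), the unit of all levels that follow. It was at 1.07, 6.88, 9.99 and 0.508 CPM in WT, 42.9, 34.8, 38.7, 43.02 and 57.8 CPM in LAG-3-low and 167, 163, 176, 146 and 195 CPM in LAG-3-high libraries, so the sort groups did not overlap. In microglia of the second experiment Lag3 was at 62.95, 61.7 and 53.4 CPM at P120 and 28.1, 24.5 and 25.7 CPM at P140 in LAG-3+/+ libraries, and at no more than 0.462 CPM in any LAG-3-/- library. In the cord it was at 74.5, 43.4 and 61.4 CPM in LAG-3+/+ and 5.72, 5.6 and 5.5 CPM in LAG-3-/- libraries.

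Library totals were 9403475 to 22850586 counts in the LAG-3 sort, 23981406 to 49512632 in the genotype-by-stage table and 19430102 to 26994524 in the cord. Microglial markers were detected in all sorted libraries, with 7 of 7 matched genes above 0 in each group. Markers of neutrophils, another myeloid cell that the gate could hold, set libraries apart. The 13 neutrophil markers summed to 5978.5 to 70471 CPM in WT and 22464 to 65221 CPM in LAG-3-low libraries, and to 3.55 to 9.60 CPM in LAG-3-high libraries, in which Mmp9, Ly6g and Elane were at 0. In the genotype-by-stage table the sum was 1729 to 2566 CPM in P120 LAG-3+/+ and 2.81 to 6.58 CPM in P120 LAG-3-/- libraries. At P140 the LAG-3+/+ libraries had 3428, 670.3 and 3.92 CPM and the LAG-3-/- libraries 4.02, 843 and 4584 CPM.

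In the LAG-3 sort, Aldoa and Gapdh rose from the low to the high sort, by 1.76-fold and 1.5-fold, and the other 8 genes did not pass the test. A gene passed at an adjusted p under 0.1 in edgeR's quasi-likelihood test over all 16508 genes tested, of which 1.59% passed as higher and 2.8% as lower. Relative to WT microglia, 9 of the 10 genes rose in LAG-3-low and 7 in LAG-3-high cells, and Hk2 fell in both, where 12% and 13.8% of all genes passed as higher and 12.9% and 16.5% as lower. These directions held with DESeq2 size factors and with library totals alone in both WT comparisons, but an offset for the length and GC content of the longest transcript turned Gapdh and Eno1 negative in both and Aldoa negative in LAG-3-low against WT. That offset also moved the median of all genes, from -0.08 to -0.64 in LAG-3-high and from 0.04 to -0.61 in LAG-3-low against WT. Summed over the 10 genes, the level was 1849 to 3471 CPM in WT, 4667 to 6331 CPM in LAG-3-low and 6147 to 7166 CPM in LAG-3-high libraries. TMM factors separated the sorts, at 1.07 to 1.17 for the low libraries and 0.83 to 0.915 for the high libraries. Before scaling, the 10 genes held 0.528% to 0.678% of counts for the low sort and 0.527% to 0.598% for the high sort. The rise of the sum from low to high was thus absent without these factors. WT libraries, at 0.182% to 0.424%, stayed below both sorts. The 3 comparisons share libraries, the WT libraries serving both contrasts with WT, so they are not independent of each other. In pools of sorted cells, fewer cells of a type and less RNA per cell cannot be told apart. The share of all genes whose groups do not overlap was not counted for the sort.

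At the entry to the pathway, Hk2 was at 413, 198, 187 and 438 CPM in WT, 165, 117, 172, 129 and 151 CPM in LAG-3-low and 169, 144, 151, 178 and 163 CPM in LAG-3-high libraries. All SOD1G93A libraries lay below all WT libraries, and the low and high groups overlapped. Hk2 fell in LAG-3-low against WT (log2 fold change -1.07, SE 0.25, adjusted p = 0.0116) and in LAG-3-high against WT (log2 fold change -0.94, SE 0.25, adjusted p = 0.0174). The WT replicates 1 and 4 lay above replicates 2 and 3.

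Gpi1, the isomerase of the second step, was highest in LAG-3-low cells. Its levels were 68.4, 292, 85.4 and 117 CPM in WT, 353, 671, 555, 520.1 and 337 CPM in LAG-3-low and 286, 270.1, 245, 224 and 218 CPM in LAG-3-high libraries. Every LAG-3-low library lay above every WT and every LAG-3-high library. Gpi1 rose in LAG-3-low against WT (log2 fold change 1.79, SE 0.37, adjusted p = 0.00629), while the difference of LAG-3-high from LAG-3-low, -0.97 (SE 0.34, adjusted p = 0.188), and from WT, 0.82 (SE 0.36, adjusted p = 0.118), did not pass. Both passed when the WT replicate 2 library was left out, where 3.57% of all genes passed as lower from low to high and 19.7% as higher from WT to high. The neutrophil gene S100a8 was at 4899, 8814, 12049, 8896 and 4348 CPM in the LAG-3-low libraries and at most 1.01 CPM in LAG-3-high libraries, and replicates 1 and 5 had the lowest LAG-3-low values of both genes. In WT, S100a8 was highest in replicate 4 (23534 CPM), where Gpi1 was at 117 CPM. Gpi1 was highest in WT replicate 2 (292 CPM), where S100a8 was at 6798.5 CPM. The neutrophil markers did not share an order in WT. S100a9, like S100a8, was highest in replicate 4 (10970 CPM). Ltf was highest in replicate 2, at 5986 CPM, and at 376 CPM in replicate 4. The part of neutrophil RNA in the Gpi1 level was not tested.

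The phosphofructokinase subunits differed from each other. Pfkl was at 35.2, 103, 89.8 and 34.9 CPM in WT, 199.5, 155, 189, 147 and 209.7 CPM in LAG-3-low and 299, 252, 271, 271 and 271 CPM in LAG-3-high libraries, and the 3 groups did not overlap. It rose against WT in LAG-3-low (log2 fold change 1.45, SE 0.31, adjusted p = 0.00656) and in LAG-3-high cells (log2 fold change 2.05, SE 0.31, adjusted p = 0.000524), but high against low did not pass (log2 fold change 0.60, SE 0.28, adjusted p = 0.409). Pfkp, by contrast, was a low gene, at 0.102, 5.84, 0.621 and 0 CPM in WT, 20.9, 21.2, 14.1, 38.2 and 22.2 CPM in LAG-3-low and 15.4, 4.07, 9.67, 9.58 and 7.89 CPM in LAG-3-high libraries. The highest levels of Pfkp were in LAG-3-low cells, as for Gpi1, with 1 LAG-3-high library above the lowest LAG-3-low library. Pfkp rose in LAG-3-low against WT (log2 fold change 3.85, SE 1.18, adjusted p = 0.0388), and its fitted value rests on WT libraries at or near 0. Of the fits leaving out 1 library, LAG-3-high against WT passed only in that without the WT replicate 2 library (all libraries: log2 fold change 2.52, SE 1.10, adjusted p = 0.117), and high against low did not pass (log2 fold change -1.32, SE 0.97, adjusted p = 0.713).

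Aldoa, which splits fructose-1,6-bisphosphate, rose in steps across the sort. It was at 294, 384, 317 and 305 CPM in WT, 668, 763, 678, 562 and 618 CPM in LAG-3-low and 1276, 1225, 1149, 1099 and 1054 CPM in LAG-3-high libraries. The groups were separated by more than their spread, with means of 325 ± 40.5 (SD, n = 4), 658 ± 74.6 (SD, n = 5) and 1160.4 ± 90.5 (SD, n = 5). The difference of high from low was 0.82 (SE 0.13, adjusted p = 0.0035), of high from WT 1.84 (SE 0.15, adjusted p = 2.25e-06) and of low from WT 1.02 (SE 0.14, adjusted p = 0.000474). With library totals alone in place of TMM factors, the high-low difference kept its direction and no longer passed (0.44, adjusted p = 0.189).

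Gapdh, the dehydrogenase that yields NADH, followed the same order with smaller steps. Its values were 474, 558, 639 and 575 CPM in WT, 681, 847, 829.5, 771 and 796 CPM in LAG-3-low and 1343, 1251, 1088, 1099.7 and 1118 CPM in LAG-3-high libraries, again without overlap. The high-low difference was 0.59 (SE 0.13, adjusted p = 0.0208), and it did not pass with library totals alone (0.21, adjusted p = 0.559). Against WT, LAG-3-high differed by 1.07 (SE 0.14, adjusted p = 0.000145) and LAG-3-low by 0.48 (SE 0.14, adjusted p = 0.0286). Pgk1, which makes the first ATP of the pathway, was at 59.8, 84.1, 46.7 and 87.7 CPM in WT, 137, 165, 160.2, 122 and 153 CPM in LAG-3-low and 242, 214, 187, 196 and 184 CPM in LAG-3-high libraries. These groups did not overlap either, and Pgk1 passed against WT in both sorts (1.09 (SE 0.21, adjusted p = 0.00409) for low, 1.56 (SE 0.21, adjusted p = 0.000208) for high) but not between high and low, 0.47 (SE 0.19, adjusted p = 0.304).

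**Figure D1:**
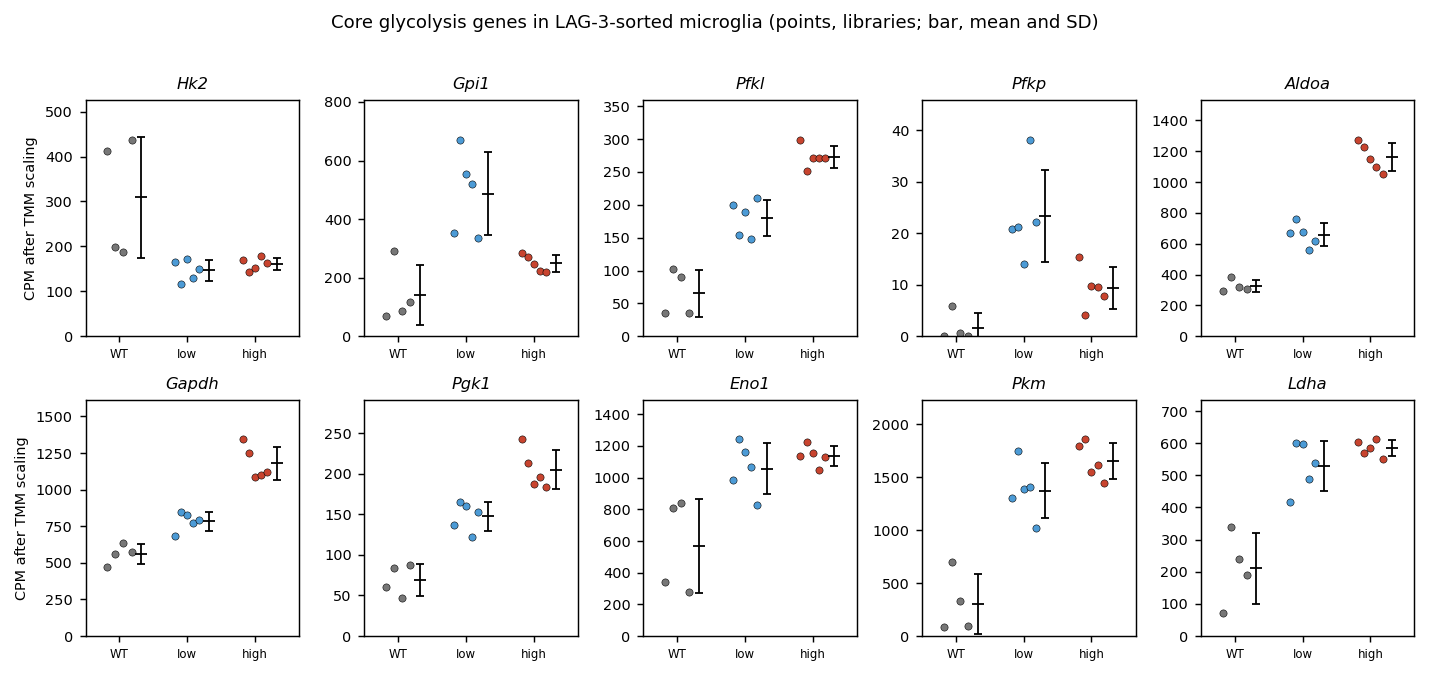
Level of each of the 10 genes in the LAG-3 sort, in CPM after TMM scaling (vertical axis from 0, 1 panel per gene), for 4 WT, 5 low and 5 high libraries. Points are libraries and the bar gives mean and SD, cut at 0 for Pfkp in WT. Aldoa, Gapdh, Pgk1 and Pfkl step up from WT to low to high without overlap, Gpi1 and Pfkp peak in LAG-3-low cells, and Eno1, Pkm and Ldha overlap between low and high. Only Aldoa and Gapdh passed between low and high. The share of all genes whose groups do not overlap was not counted.

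The last steps separated SOD1G93A from WT cells and not high from low. Eno1 was at 344, 811, 841 and 279.6 CPM in WT, 983, 1241, 1159, 1067 and 825 CPM in LAG-3-low and 1134, 1228, 1153, 1047 and 1129 CPM in LAG-3-high libraries. Pkm was at 88.6, 698, 335 and 93.1 CPM in WT, 1307, 1749, 1392, 1407 and 1017 CPM in LAG-3-low and 1798, 1859, 1549, 1619.7 and 1451 CPM in LAG-3-high libraries. Ldha was at 72.2, 338, 241 and 191 CPM in WT, 418, 601, 599, 488 and 539 CPM in LAG-3-low and 604, 569, 585, 612 and 552 CPM in LAG-3-high libraries. For all 3 genes the low and high groups overlapped, and for Eno1 the highest WT library lay above the lowest LAG-3-low library. In LAG-3-low against WT, Eno1 changed by 0.89 (SE 0.29, adjusted p = 0.0467), Pkm by 2.18 (SE 0.50, adjusted p = 0.00988) and Ldha by 1.33 (SE 0.31, adjusted p = 0.0115). LAG-3-high against WT gave 1.0004 (SE 0.29, adjusted p = 0.0246) for Eno1, 2.45 (SE 0.50, adjusted p = 0.00416) for Pkm and 1.47 (SE 0.31, adjusted p = 0.00506) for Ldha. The high-low differences were 0.11 (SE 0.26, adjusted p = 0.969) for Eno1, 0.27 (SE 0.44, adjusted p = 0.94) for Pkm and 0.14 (SE 0.28, adjusted p = 0.958) for Ldha, and with library totals alone these 3 and that of Hk2 changed sign. The WT replicates 1 and 4 were the low WT libraries for Pfkl, Eno1, Pkm and Ldha and the high ones for Hk2.

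The median log2 fold change of the 10 genes was 0.21 for high against low, beside -0.02 over all genes tested, 1.52 for high against WT beside -0.08, and 1.21 for low against WT beside 0.04. Every count of passing genes for high against WT and low against WT was the same or larger when any 1 library was left out. For high against low, Aldoa and Gapdh passed without each library in turn. In a fit of the 10 SOD1G93A libraries alone, 6 genes passed: Pfkl, Aldoa, Gapdh and Pgk1 as higher and Gpi1 and Pfkp as lower in LAG-3-high cells. The background rose as well in that fit, with 11.6% of 14651 genes passing as higher and 12.1% as lower.

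The wider pathway was described by 45 further glycolysis genes (glucose transporters, other hexokinases and isoenzymes, PFKFB regulators, lactate transporters, pyruvate entry to mitochondria and the HIF pathway), of which 39 were tested in this table. In high against low, 1 (2.56%) rose and 2 (5.13%) fell, beside 1.59% and 2.8% of all genes. Hif1a, the oxygen-regulated subunit of HIF-1, was at 78.7, 76.7, 109.9 and 117 CPM in WT, 358, 376, 365, 237 and 527 CPM in LAG-3-low and 866, 895, 748, 768 and 1001 CPM in LAG-3-high libraries and rose from low to high (log2 fold change 1.20, SE 0.20, adjusted p = 0.00462). The glucose transporter gene Slc2a3, at 6.53, 62.04, 1.36 and 11.1 CPM in WT, fell from 117, 181, 265, 118 and 102 CPM in LAG-3-low to 11.6, 9.81, 18.7, 14.3 and 18.7 CPM in LAG-3-high libraries (log2 fold change -3.42, SE 0.74, adjusted p = 0.0199). Its highest LAG-3-low values, in replicates 2 and 3, were in the LAG-3-low libraries with the highest neutrophil marker sums (up to 65221 CPM). LAG-3-low replicate 5 had the lowest of both (102 and 22464 CPM). WT libraries did not share this order. The highest sum of the sort, 70471 CPM, was in WT replicate 4, where Slc2a3 was at 11.1 CPM. Among WT libraries Slc2a3 was highest in replicate 2 (62.04 CPM), which had the next highest WT sum. The part of neutrophil RNA in the Slc2a3 level was not tested. Slc2a5, a fructose transporter gene of microglia, fell as well (log2 fold change -1.63, SE 0.34, adjusted p = 0.0157).

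Against WT, 10 of the 39 (25.6%) rose and 3 (7.69%) fell in LAG-3-high cells, beside 13.8% and 16.5% of all genes, and 11 (28.2%) rose and 5 (12.8%) fell in LAG-3-low cells, beside 12% and 12.9%. Hif1a changed by 3.16 and 1.96 on the log2 scale in high and low cells (adjusted p = 1.72e-06 and 0.00014). The lactate exporter gene Slc16a3 changed by 2.84 and 3.03 (adjusted p = 0.000624 and 0.000768), and Slc2a5 by -3.43 and -1.80 (adjusted p = 3.45e-05 and 0.00449).

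In the genotype-by-stage microglia, most calls among these genes were between P120 and P140 in LAG-3+/+ mice. Aldoa, Pgk1, Eno1 and Ldha rose by 1.96-fold to 2.43-fold and Hk2 fell, with 11.9% of all 18669 genes tested passing as higher and 15.5% as lower. In LAG-3-/- mice no gene of the 10 passed between the stages, and 0% of all genes passed as higher and 0% as lower in edgeR. Between genotypes none passed at P120, where 0% of genes passed as higher and 0.0107% as lower, and Aldoa and Eno1 fell in LAG-3-/- at P140, where 7.22% passed as higher and 3% as lower. No gene of the 10 passed the test of the genotype-by-stage interaction, for which 0.161% of genes passed as higher and 0.0107% as lower. Summed over the 10 genes, the level was 4219 to 4850 CPM in P120 LAG-3+/+, 2898 to 4398 CPM in P120 LAG-3-/-, 6235 to 7889 CPM in P140 LAG-3+/+ and 4580 to 6295 CPM in P140 LAG-3-/- libraries. Library measures moved with this stage contrast. The P120 LAG-3+/+ libraries had 24136 to 24942 genes with a count and TMM factors of 1.06 to 1.16, and the P140 LAG-3+/+ libraries 18896 to 20489 genes and factors of 0.734 to 0.855. The P140 LAG-3-/- replicate 1 library, with 20260 genes and a factor of 0.848, lay in the P140 LAG-3+/+ range, whereas replicates 2 and 3 had 23896 and 23459 genes and factors of 0.98 and 1.12. The part of these measures in the member values was not tested, and with library totals alone the same 5 genes passed in the LAG-3+/+ stage contrast. The comparisons share groups: the P140 LAG-3+/+ libraries enter both the stage contrast of that genotype and the genotype contrast at P140. Where groups are said not to overlap below, the share of all genes that separate in this way was not counted.

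Aldoa was at 537, 555 and 484 CPM in P120 LAG-3+/+ libraries and 995, 1451 and 1388 CPM in P140 LAG-3+/+ libraries. It was at 351, 629 and 402 CPM in P120 LAG-3-/- and 898, 707 and 511 CPM in P140 LAG-3-/- libraries. All P140 LAG-3+/+ libraries lay above those of the other 3 groups. Between the stages in LAG-3+/+ mice the change was 1.28 (SE 0.27, adjusted p = 0.01), and between the genotypes at P140 it was -0.86 (SE 0.26, adjusted p = 0.0874).

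Eno1 showed a similar order, at 839.6, 683 and 762 CPM in P120 LAG-3+/+ and 1416, 2089 and 2059 CPM in P140 LAG-3+/+ libraries. In LAG-3-/- libraries it was at 587, 688 and 603 CPM at P120 and 1492, 946 and 819 CPM at P140. The P140 LAG-3-/- replicate 1 library lay within the range of P140 LAG-3+/+, so those groups overlapped. Eno1 rose between the stages in LAG-3+/+ mice, 1.28 (SE 0.24, adjusted p = 0.0072), and fell in LAG-3-/- at P140, -0.77 (SE 0.23, adjusted p = 0.0848).

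Pgk1 was at 141, 141 and 149 CPM in P120 LAG-3+/+, 236, 414 and 283 CPM in P140 LAG-3+/+, 71.3, 145 and 90.7 CPM in P120 LAG-3-/- and 195, 163 and 169 CPM in P140 LAG-3-/- libraries. Ldha was at 471, 454 and 412 CPM, 893, 872 and 857 CPM, 305, 499 and 341 CPM and 719, 518 and 488 CPM in the same groups. For both genes every P140 LAG-3+/+ library lay above every library of the other 3 groups. Both rose between the stages in LAG-3+/+ mice (1.11 (SE 0.27, adjusted p = 0.0176) for Pgk1 and 0.97 (SE 0.21, adjusted p = 0.0112) for Ldha). At P140 the genotype differences were -0.82 (SE 0.27, adjusted p = 0.102) for Pgk1 and -0.60 (SE 0.21, adjusted p = 0.115) for Ldha, just outside the threshold.

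**Figure D2:**
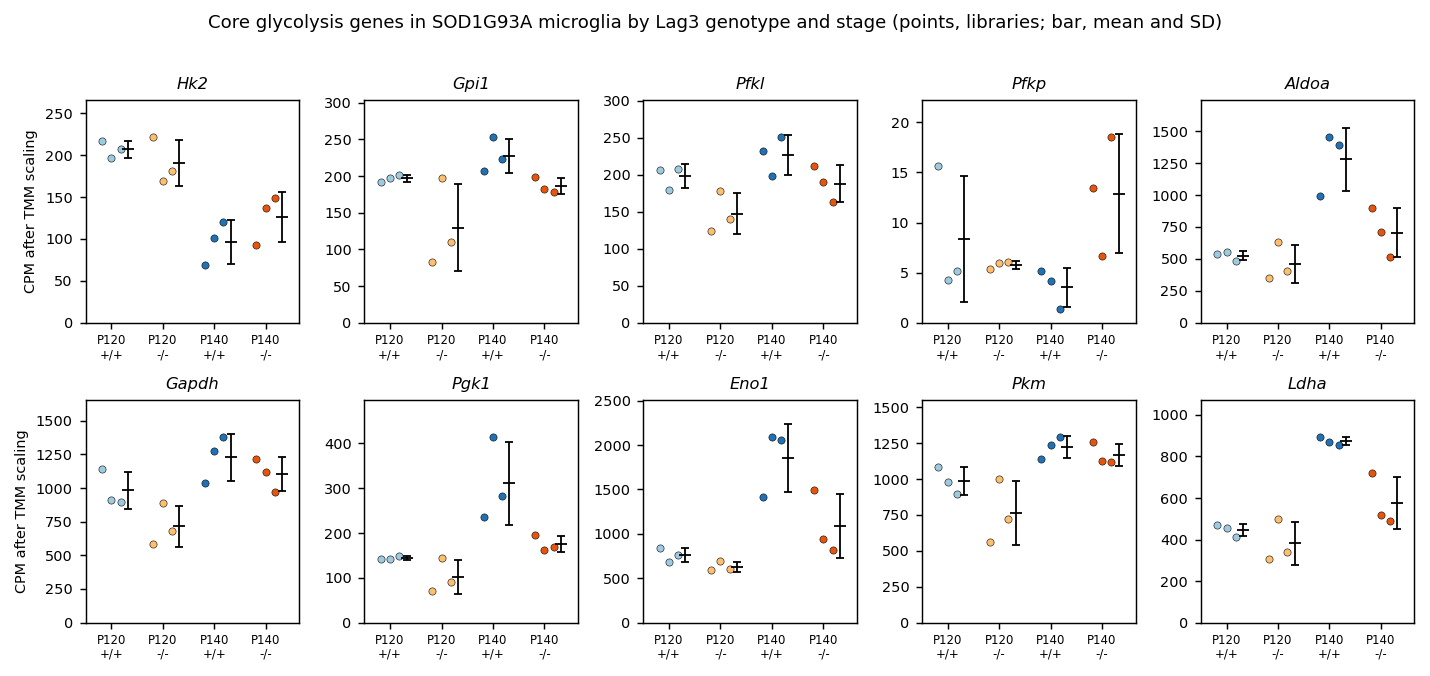
Level of each gene in microglia by genotype and stage, in CPM after TMM scaling (vertical axis from 0, 1 panel per gene), with 3 libraries per group. Points are libraries and the bar gives mean and SD. Aldoa, Pgk1 and Ldha are highest in all 3 P140 LAG-3+/+ libraries, and Hk2 is lower at P140 than at P120 in every library of both genotypes. The share of all genes whose groups separate in this way was not counted.

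Hk2 went the other way. It was at 217, 197 and 207 CPM and 221, 169 and 181 CPM at P120 and at 68.7, 101 and 120.1 CPM and 92.2, 137 and 149 CPM at P140, in LAG-3+/+ and LAG-3-/- libraries respectively. All P140 libraries lay below all P120 libraries of both genotypes. The fall passed in LAG-3+/+ mice, -1.10 (SE 0.24, adjusted p = 0.012), and the value in LAG-3-/- mice was -0.60 (SE 0.24, adjusted p = 0.526). With the length and GC offset the LAG-3+/+ value turned positive, 0.33, while the median of all genes moved from -0.22 to 0.12.

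Gapdh was at 1143, 909.8 and 895 CPM in P120 LAG-3+/+, 587, 886 and 679 CPM in P120 LAG-3-/-, 1039, 1272 and 1379 CPM in P140 LAG-3+/+ and 1218, 1123 and 967 CPM in P140 LAG-3-/- libraries. Its P120 LAG-3-/- libraries lay below all P120 LAG-3+/+ libraries, yet the difference, -0.45 (SE 0.19, adjusted p = 1), did not pass after adjustment. The P140 genotype groups overlapped (-0.16 (SE 0.19, adjusted p = 0.678)). Across the 3 other genes of the upper and last steps, Gpi1 ranged from 82.2 to 197 CPM in P120 LAG-3-/- to 206 to 253 CPM in P140 LAG-3+/+ libraries, Pfkl from 124 to 178 CPM to 198 to 251 CPM, and Pkm from 565 to 1001 CPM to 1143 to 1293 CPM in those groups. None of them passed in any of these comparisons, and with library totals alone their sign and that of Gapdh turned in the P140 genotype contrast and in the LAG-3+/+ stage contrast. Pfkp stood apart, at 5.15, 4.15 and 1.38 CPM in P140 LAG-3+/+ and 13.5, 6.65 and 18.5 CPM in P140 LAG-3-/- libraries, with no overlap and the higher level in LAG-3-/- (log2 fold change 1.85, SE 0.67, adjusted p = 0.126). At P120 its range was 4.31 to 15.6 CPM in LAG-3+/+ and 5.35 to 6.02 CPM in LAG-3-/- libraries.

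At P120 all 10 fold changes of LAG-3-/- against LAG-3+/+ were negative, from -0.60 (Gpi1) to -0.12 (Hk2), with a median of -0.40 beside -0.01 over all genes. None passed: all adjusted p were 1 in edgeR, 3 genes (Gpi1, Pfkl and Gapdh) had an unadjusted p under 0.05, DESeq2 called 0 as well (0.207% of the genes it tested as higher and 0.584% as lower), and over all genes 551 had an unadjusted p under 0.05. The P120 LAG-3-/- replicate 2 library was the highest of its group for 8 of the 10 genes, and its summed disease-associated microglia markers (9 genes, among them Apoe, Cst7 and Clec7a) reached 50483 CPM, compared with 9995 and 13514 CPM in the other two. Neutrophil marker sums differed between these groups as well, as given above, and their part in the member values was not tested.

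Between P120 and P140 in LAG-3-/- mice, 9 of the 10 fold changes were positive, with a median of 0.61 beside -0.03 over all genes. The smallest adjusted p, 0.475, was shared by Eno1 (0.79), Gapdh (0.62) and Pkm (0.61). At an unadjusted p under 0.05 there were 7 of the 10 genes and 1658 of all genes, and DESeq2 called Gapdh and Eno1 as higher, beside 2.2% of the genes it tested as higher and 0.56% as lower. The interaction values, which compare the genotype difference at P140 with that at P120, were -0.67 (SE 0.37, adjusted p = 0.455) for Aldoa, -0.49 (SE 0.33, adjusted p = 0.539) for Eno1 and 2.39 (SE 0.93, adjusted p = 0.303) for Pfkp. At an unadjusted p under 0.05 there were 1 of the 10 genes (Pfkp) and 2541 of all genes, and DESeq2 called 0 of the 10, beside 5.59% of the genes it tested as higher and 2.41% as lower. These values do not show that the stage change differed between the genotypes for any of the 10 genes.

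The calls in the P140 genotype contrast changed with single libraries. With any 1 of the 12 libraries left out in turn, between 0 and 4 genes passed. None passed when the P120 LAG-3-/- replicate 1 or 3, the P140 LAG-3+/+ replicate 2 or 3, the P140 LAG-3-/- replicate 2 or 3 or any P120 LAG-3+/+ library was left out, while Aldoa, Pgk1, Eno1 and Ldha passed without the P140 LAG-3-/- replicate 1, Aldoa, Pgk1 and Eno1 without the P140 LAG-3+/+ replicate 1, and Aldoa, Pgk1 and Ldha without the P120 LAG-3-/- replicate 2. In these last 3 fits 8.29%, 4.01% and 1.76% of all genes passed as lower. Without the P140 libraries with neutrophil markers over 100 CPM, which leaves 1 library per genotype and assumes that it varies like the other groups, 0 passed, beside 1.29% of all genes as higher and 0.411% as lower. The 5 calls between the stages in LAG-3+/+ mice stood without each library in turn. Without the P140 libraries with neutrophil markers, Aldoa, Gapdh, Eno1 and Ldha passed as higher and Hk2 as lower between the stages in LAG-3-/- mice, where 6.65% of 22863 genes passed as higher and 8.7% as lower. The P140 LAG-3-/- group was then the replicate 1 library alone, which stood apart from the rest of its group in genes detected, as given above. The median of all genes in the P140 genotype contrast was 0.14, and 0.47 with library totals alone, while that of the 10 genes was -0.28 and 0.04.

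Of the 45 further glycolysis genes, 40 were tested in this table. Between the stages in LAG-3+/+ mice 8 rose and 8 fell (20% each, beside 11.9% and 15.5% of all genes), among them Hk1, the constitutive hexokinase (-2.59 (SE 0.42, adjusted p = 0.00558)), Pdhb, a subunit of pyruvate dehydrogenase (1.31 (SE 0.22, adjusted p = 0.0061)), and Slc2a1, the glucose transporter GLUT1 (1.54 (SE 0.33, adjusted p = 0.0108)). Hk1 was at 31.7, 30.7 and 34.2 CPM at P120 and 6.89, 6.31 and 2.81 CPM at P140 in LAG-3+/+ libraries, a fall in the same direction as Hk2. At P140 LAG-3-/- against LAG-3+/+, 3 rose and 3 fell (7.5% each, beside 7.22% and 3%): the smallest adjusted p were those of Pfkfb3, which makes the activator of phosphofructokinase (1.15 (SE 0.32, adjusted p = 0.0653)), Pdhb (-0.79 (SE 0.22, adjusted p = 0.0693)) and Hk1 (1.41 (SE 0.40, adjusted p = 0.072)). None passed at P120, between the stages in LAG-3-/- mice or in the interaction. Eno3 (-1.50), Pgam1 (0.82) and Ldhb (0.85) had the smallest adjusted p between the stages in LAG-3-/- mice, 0.475, 0.475 and 0.493. In the interaction these were Pdhb (-1.01 (SE 0.31, adjusted p = 0.227)), Hk1 (1.58 (SE 0.56, adjusted p = 0.266)) and Pdk1 (1.34 (SE 0.48, adjusted p = 0.27)), and at P120 every adjusted p was 1.

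**Figure D3:**
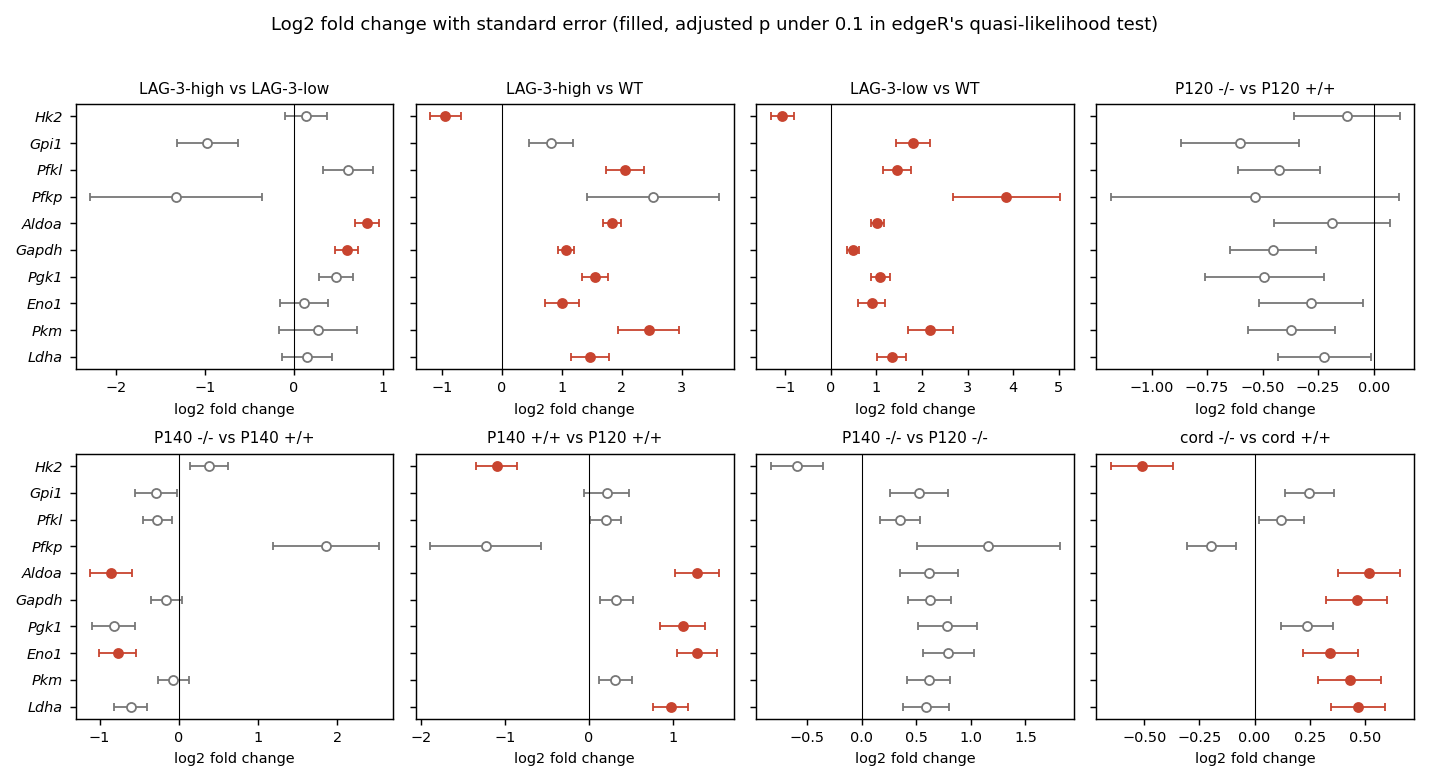
Log2 fold change (horizontal axis) of the 10 genes (vertical axis) in 8 comparisons, 1 panel each with its own scale. Points are edgeR estimates, bars are standard errors and filled points passed at an adjusted p under 0.1. Hk2 lies left of 0 in both WT contrasts, in both stage contrasts and in the cord, while Aldoa lies right of 0 in each of these.

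In the spinal cord at P140, 5 of the 10 genes rose and 1 fell in LAG-3-/- compared with LAG-3+/+ mice. Aldoa, Gapdh, Eno1, Pkm and Ldha were 1.27-fold to 1.43-fold higher, and Hk2 fell. The background in this table was high, with 23.1% of 17702 genes tested passing as higher and 23.9% as lower. The median log2 fold change of the 10 genes was 0.30, beside 0.00 over all genes, and their summed level was 5596 to 6520 CPM in LAG-3+/+ and 7812 to 8267 CPM in LAG-3-/- libraries.

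Hk2 was at 21.9, 15.7 and 20.6 CPM in LAG-3+/+ and 13.96, 12.9 and 14.1 CPM in LAG-3-/- cord, without overlap (log2 fold change -0.51, SE 0.14, adjusted p = 0.0143). Aldoa was at 893, 1081 and 1027 CPM and 1414, 1578 and 1309 CPM in the same order (log2 fold change 0.52, SE 0.14, adjusted p = 0.0131). Gapdh was at 1678, 1929 and 1886 CPM and 2569, 2635 and 2366 CPM (log2 fold change 0.46, SE 0.14, adjusted p = 0.022). All LAG-3-/- libraries lay above all LAG-3+/+ libraries for Aldoa and Gapdh. The direction of both held under each scaling, except that Gapdh came to -0.03 with the offset for length and GC content of canonical transcripts. That offset ended all 6 calls in the cord, with adjusted p of 0.415 (Ldha) to 0.977 (Eno1), while 13.7% of all genes still passed as higher and 12.2% as lower.

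Eno1 was at 588, 687 and 674 CPM in LAG-3+/+ and 873, 784 and 816 CPM in LAG-3-/- cord (log2 fold change 0.34, SE 0.13, adjusted p = 0.0489). Pkm was at 1143, 1466 and 1323 CPM and 1715, 1738 and 1846 CPM (log2 fold change 0.43, SE 0.14, adjusted p = 0.0327). Ldha was at 119, 113 and 131 CPM and 174, 184 and 143 CPM (log2 fold change 0.47, SE 0.12, adjusted p = 0.0112). None of the 3 overlapped between genotypes, but the share of all genes without overlap in the cord was not counted. The call of Eno1 was lost without the LAG-3+/+ replicate 1 (adjusted p = 0.104), the LAG-3+/+ replicate 3 (0.132) or the LAG-3-/- replicate 1 (0.13), and that of Pkm without the LAG-3+/+ replicate 3 (0.116).

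The other 4 genes did not pass. Gpi1, at 407, 431 and 411 CPM and 477, 502 and 505 CPM (0.25 (SE 0.11, adjusted p = 0.102)), and Pgk1, at 413, 447 and 445 CPM and 541, 528 and 469 CPM (0.24 (SE 0.12, adjusted p = 0.138)), were higher in every LAG-3-/- library. Pfkp was at 224, 231 and 213 CPM and 181, 190.2 and 212 CPM (-0.20 (SE 0.11, adjusted p = 0.189)) and lower in every LAG-3-/- library. Pfkl overlapped, at 109, 119.5 and 109.8 CPM and 121, 115 and 132 CPM, and its value of 0.12 (SE 0.10, adjusted p = 0.381) changed sign with library totals alone.

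**Figure D4:**
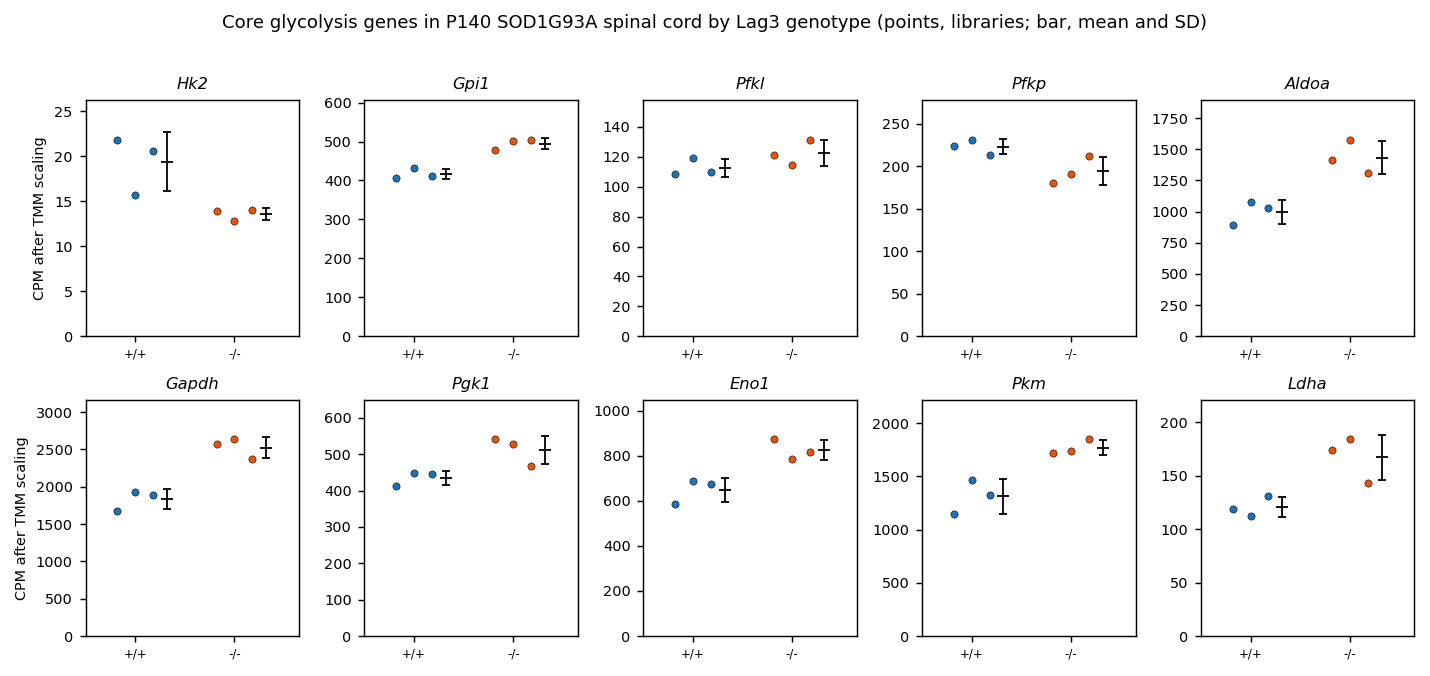
Level of each gene in P140 lumbar spinal cord by genotype, in CPM after TMM scaling (vertical axis from 0, 1 panel per gene), for 3 LAG-3+/+ and 3 LAG-3-/- libraries. Points are libraries and the bar gives mean and SD. Hk2 and Pfkp lie lower and the other genes higher in LAG-3-/- cord, with overlap for Pfkl. The share of all genes whose groups do not overlap was not counted. Of all genes tested, 23.1% passed as higher and 23.9% as lower.

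Cell type markers moved with genotype in the cord. The 5 oligodendrocyte markers summed to 15978 to 17481 CPM in LAG-3+/+ and 22713 to 31982 CPM in LAG-3-/- libraries, the 6 astrocyte markers to 12945 to 14787 and 7582 to 12100 CPM, the 6 neuron markers to 3323 to 4703 and 4297 to 4789 CPM, and the 7 microglial markers to 1103 to 1387 and 790 to 1078 CPM. No defining marker of these lists was at 0. Their part in the differences of the glycolysis genes was not tested.

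Transcript length also moved with the fold changes. Over the coding genes of the cord table, the median log2 fold change was 0.62 for canonical transcripts under 1.5 kb, 0.30 from 1.5 to 2.5 kb, -0.05 from 2.5 to 5 kb and -0.41 over 5 kb, and 67.5%, 45.1%, 14.9% and 4.05% of genes in these classes passed as higher. The 5 genes that rose in the cord are 1.42 to 2.45 kb long, and Hk2, which fell, is 7.80 kb long. Beside these class medians, Gapdh was at 0.46 in the shortest class, Aldoa, Pgk1, Eno1, Pkm and Ldha had a median of 0.43 in the next, and Hk2 was at -0.51 in the longest. Between the stages in LAG-3+/+ microglia the class medians were 0.96, 0.59, -0.43 and -1.07: Hk2 at -1.10 was close to its class, Aldoa, Pgk1, Eno1 and Ldha lay above theirs, and Gapdh at 0.32 and Pkm at 0.31 lay below. At P140 LAG-3-/- against LAG-3+/+ the class medians were -0.59, -0.37, 0.38 and 0.80. In the LAG-3 sort they spanned 0.26 to 0.00 for high against low, and -0.51, 0.10, 0.29 and 0.23 for low against WT, where 9 of the 10 genes lay above their class and Hk2 at -1.07 below it.

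**Figure D5:**
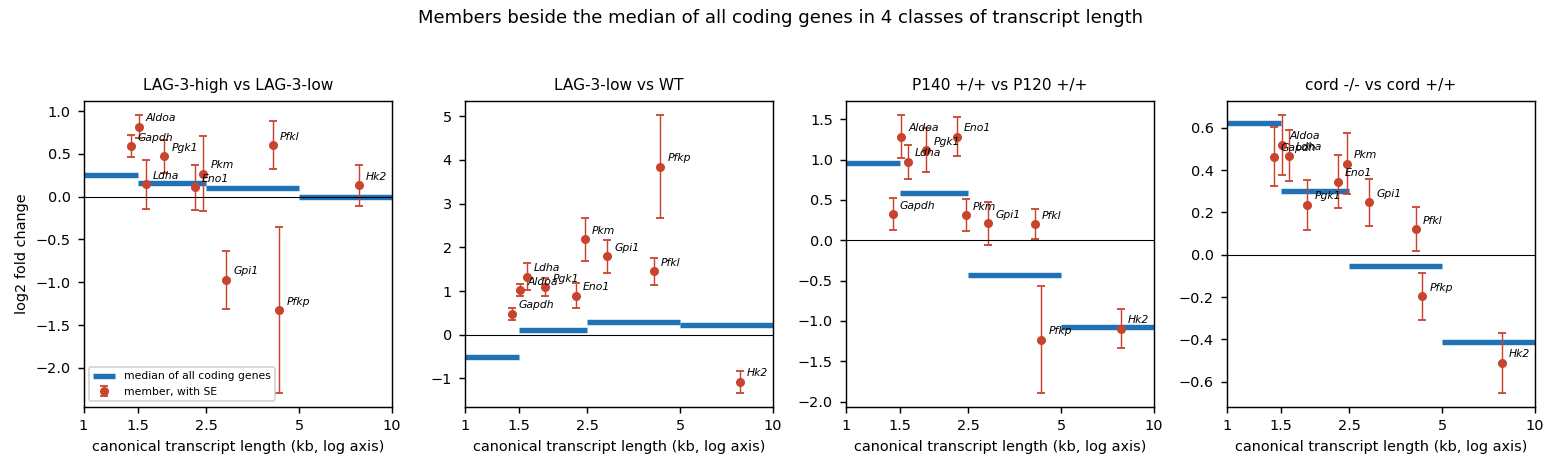
Log2 fold change (vertical axis) against the length of the canonical transcript in kb (horizontal log axis, drawn from 1 to 10 kb) in 4 comparisons. Points with standard errors are the 10 genes and thick lines are medians of all coding genes in 4 length classes, under 1.5, 1.5 to 2.5, 2.5 to 5 and over 5 kb. In the cord the points fall with length as the lines do, and in LAG-3-low against WT 9 points lie above the lines and Hk2 below.

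Of the 45 further glycolysis genes, 42 were tested in the cord, and 11 (26.2%) rose and 6 (14.3%) fell, beside 23.1% and 23.9% of all genes. The smallest adjusted p were those of Mpc2, a subunit of the mitochondrial pyruvate carrier (1.02 (SE 0.12, adjusted p = 0.000298)), Pfkfb3 (-0.84 (SE 0.11, adjusted p = 0.000476)) and Hif1a (-0.78 (SE 0.12, adjusted p = 0.00072)). Hif1a was at 229, 198 and 232 CPM in LAG-3+/+ and 141, 119.6 and 123 CPM in LAG-3-/- cord.

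Gapdh lies near the disrupted gene. In build GRCm39 Lag3 is at chr6:124881320-124888765 and Gapdh at chr6:125135289-125143518, 247 kb away, and the further glycolytic genes Tpi1 and Eno2 lie 90.05 and 135 kb from Lag3. Hk2 is on the same chromosome at a distance of 42130 kb. In the cord Tpi1, the triose phosphate isomerase, was at 324, 404 and 383 CPM in LAG-3+/+ and 582, 603 and 527 CPM in LAG-3-/- libraries (log2 fold change 0.62, SE 0.13, adjusted p = 0.00333), and Eno2, the neuronal enolase, gave 0.30 (SE 0.15, adjusted p = 0.126). In microglia neither passed between the genotypes: Tpi1 gave -0.39 (SE 0.28, adjusted p = 1) at P120 and -0.41 (SE 0.28, adjusted p = 0.4) at P140, and Eno2 0.65 (SE 0.77, adjusted p = 1) and 0.50 (SE 0.77, adjusted p = 0.75).

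The qPCR primers of the study for Gapdh, its reference gene, are shown because Gapdh levels differed between groups here. The study used qPCR on lumbar cord, lymph nodes and spleen across disease stages, and no contrast here covers those samples. It also measured LAG-3 in the cord by Western blot and immunostaining.
Gapdh forward: TGTGTCCGTCGTGGATCTGA
Gapdh reverse: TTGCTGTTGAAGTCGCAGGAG
The capitals mark the whole primer. In GRCm39 the forward primer matched exon 5 of 7 (chr6:125139461-125139480) and the reverse primer exon 6 (chr6:125139247-125139267), both in coding sequence on a gene of the minus strand, with a product of 150 bases. Of 183 annotated gene copies that match Gapdh at 90% identity or more, 33 hold both primer sites without a mismatch. In the count tables the Gapdh row held 85.1% to 95.2% of the counts of Gapdh and its copies in the LAG-3 sort, 89.9% to 95.5% in the stage table and 93.3% to 99.1% in the cord. The Eno1 row held 90.3% to 97.4%, 95.0% to 96.9% and 99.4% to 99.8%, with Eno1b as the largest copy, and Ldha as little as 79.5% in 1 library of the sort. Reads of these genes and their copies can be split by the estimate of Salmon, and summing all copies changed no call.

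Levels were compared between genes as CPM per kb of transcript. Pfkp was the lowest of the 10 in every microglial group and Hk2 the lowest in both cord groups. With canonical transcripts, Gapdh was the highest in all 4 genotype-by-stage groups, at 692 CPM per kb in P120 LAG-3+/+, 505 in P120 LAG-3-/-, 866 in P140 LAG-3+/+ and 777 in P140 LAG-3-/-. The order of the next genes lay within their spread in both LAG-3-/- groups, with Pkm at 312 and Aldoa at 305 at P120, and Pkm at 477, Eno1 at 473 and Aldoa at 467 at P140. In P140 LAG-3+/+ microglia the order of Gapdh (866), Aldoa (846) and Eno1 (809) also lay within their spread. With the longest transcripts the first place went to Pkm in 3 of these groups and to Aldoa in P140 LAG-3+/+, so the order among the leading genes depends on the transcript used. From WT to LAG-3-high cells Hk2 went from the seventh to the ninth place, at 39.6 and 20.6 CPM per kb, and Pfkl from the ninth to the eighth, at 16.0 and 66.5 CPM per kb.

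Across libraries, each gene was set against the mean of the other 9, with every gene centred on its mean log2 CPM in the table. Pearson's r over 14 sorted libraries was 0.77 to 0.98 for 9 genes and -0.90 for Hk2. Over 12 genotype-by-stage libraries it was -0.76 for Hk2, -0.28 for Pfkp and 0.77 to 0.95 for the others. Over 6 cord libraries Hk2 and Pfkp were at -0.94 and -0.85 and the others at 0.58 to 0.99. These values describe libraries that share groups and depth. The genes outside all lists with the highest r with the mean of all 10 were Msn (moesin, 0.99), AI504432 (0.99) and Tnfsf8 (the ligand of CD30, 0.99) in the sort, Smpdl3a (0.97) and the ribosomal protein genes Rps27a (0.97) and Rplp0 (0.96) in the stage table, and Arhgdig, Nkain4 and Dmap1 (all 0.999) in the cord.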

How the data were processed

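Microglia sorted by FACS from lumbar spinal cord (26 libraries) and whole lumbar cord (6 libraries) were sequenced by the authors, who trimmed the reads with Trim Galore 0.6.7, quantified them with Salmon 1.9.0 against GRCm39 and imported them with tximport under R 4.2.1, per the submitters' processing notes and the study's methods. Microglial libraries were made with a SMART-seq kit. For the cord the study's methods name a directional kit and the labels the SMART-seq kit, and which was used was not settled. The annotation release is not given in the sources used here. The deposited values are estimated counts per Ensembl gene, not whole numbers and not normalized, and were rounded here. Salmon shares reads among similar transcripts, so members with retrocopies (Gapdh, Eno1, Ldha) carry that uncertainty, and counts are not corrected for transcript length.

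Each table was fitted on its own in edgeR 4.0.16 (R 4.3.3). Low genes were removed by filterByExpr at a minimum count of 10 and a total of 15, libraries were scaled by TMM, and the quasi-likelihood test was run in its robust form. P-values were adjusted by Benjamini-Hochberg across every gene that entered the fit: 16508 (LAG-3 sort), 18669 (genotype by stage) and 17702 (cord). A gene passed at an adjusted p under 0.1. Common dispersions were 0.691, 0.603 and 0.0247. Standard errors are the absolute log2 fold change over the square root of F. Levels are CPM after TMM scaling. Symbols and places came from GENCODE vM39, in which 71, 66 and 71 identifiers were absent (0.0479%, 0.0514% and 0.0145% of counts). The fit was also run on counts simulated from its own model, with an outcome not reported here. Those counts lack the length trends and neutrophil differences described above, so that run cannot check the calls against them. Copies were found by BLAST at 90% identity over 300 bases or more.

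The comparisons were LAG-3-high, LAG-3-low and WT pairwise, the genotypes at each stage, the stages in each genotype, the interaction, and the cord genotypes. The named genes were the 10 members, Lag3, the 3 genes of smallest adjusted p among 45 further glycolysis genes in each comparison, Tpi1 and Eno2 in knockout comparisons, and the 3 genes per table most correlated with the members' mean. S100a8, S100a9 and Ltf were named after their values were seen. The members, lists and tests were chosen with earlier results of these data known. Alternatives were RLE factors, library totals, other filters, a replicate block, listed sex, summed copies, an offset for length and GC content, DESeq2 1.42.0, fits of the compared groups alone, other thresholds and leaving out each library. Samples with the same replicate number did not deviate together (correlations of deviations from group means -0.119 to 0.0674), and the main fits have no block.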

Additional observations from a re-analysis of the deposited data

How the results depend on the processing

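Of the 9 counts of passing genes, that of P120 genotypes (0), the interaction (0) and the LAG-3+/+ stage contrast (5) stayed within 1.5 times of their value under all alternatives. For LAG-3-high against LAG-3-low the count of 2 became 1 with library totals (Gpi1, lower), 1 with the length and GC offset (Aldoa), 6 with the compared groups alone and 0 with an added minimum absolute log2 fold change of 1. Over all genes, 262 passed as higher and 463 as lower in the main fit, 74 and 704 with library totals, and 391 and 473 with the length and GC offset. For LAG-3-high against WT, 8 became 5 with the length and GC offset, and for LAG-3-low against WT 10 became 6. Over all genes, calls as higher went from 2279 to 1535 and from 1980 to 1410, and calls as lower from 2727 to 4799 and from 2130 to 4763. An offset from canonical transcripts, chosen after seeing the data because the longest transcripts of Gapdh, Aldoa, Eno1 and Ldha far exceed their canonical ones, gave 4 for LAG-3-low against WT. In the P140 genotype contrast 1347 of all genes passed as higher and 561 as lower in the main fit. These became 1275 and 837 with RLE factors, 2048 and 243 with library totals and 482 and 861 with the length and GC offset. Such counts with sex as a covariate and with DESeq2 are not given here. For P140 LAG-3-/- against LAG-3+/+, 2 became 4 with RLE factors, 1 with library totals (Pfkp, higher), 1 with sex as a covariate (Pfkp), 4 with the length and GC offset and 5 with DESeq2. It became 0 with the compared groups alone, at an adjusted p under 0.05, with the added fold change of 1, and without the P140 libraries with neutrophil markers over 100 CPM (chosen after seeing the data). Left-out libraries gave 0 to 4 there, 2 to 3 for LAG-3-high against low, 8 to 10 for high against WT and 4 to 8 in the cord. For the LAG-3-/- stage contrast, 0 became 2 with DESeq2 and 5 without those P140 libraries. The cord count of 6 became 0 with the added fold change and 0 with the canonical offset. The cause of these changes was not tested.

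Among genes that passed in the reported comparisons, signs reversed only with a length and GC offset. With longest transcripts these were Gapdh (-0.39) and Eno1 (-0.19) in LAG-3-high against WT, Aldoa (-0.084), Gapdh (-0.95) and Eno1 (-0.26) in LAG-3-low against WT, and Hk2 (0.33) between the stages in LAG-3+/+. The median of all genes was then -0.64, -0.61 and 0.12 in these comparisons, in the same order. With canonical transcripts the reversed values were Eno1 (-0.048) in LAG-3-high against WT, Gapdh (-0.16) and Eno1 (-0.15) in LAG-3-low against WT, Hk2 (0.44) between the stages and Gapdh (-0.030) in the cord. The median of all genes was then -0.63, -0.61, 0.13 and 0.0066, in the same order. Of 397 single-gene values under other settings 352 kept direction and call and 34 lost the call, and of 400 with a library left out 377 and 23. Library totals in place of TMM moved the median of all genes by -0.38 for LAG-3-high against low, -0.31 for high against WT, 0.32 for the P140 genotypes, -0.48 and -0.26 for the stages in LAG-3+/+ and LAG-3-/-, 0.22 in the interaction and -0.13 in the cord. The share of calls that were higher went from 36.1% to 9.51%, from 45.5% to 30.8% and from 70.6% to 89.4% in the first 3, from 43.4% to 19.1% between the LAG-3+/+ stages and from 49.2% to 35.5% in the cord.

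A replicate block, using the numbers that groups share, left 0 of 10 genes passing for P140 LAG-3-/- against LAG-3+/+ (Aldoa adjusted p = 0.123, Eno1 0.139) and changed no other count by over 1.5 times. No source used here says that same-numbered libraries came from the same mouse, and same-number correlations were at most 0.0674. As a hint from the data, 3 of 5 LAG-3-low libraries correlated best with their own number in LAG-3-high, and the study lists the same sex for each same-numbered pair of these, so whether these pair was not settled. With the block the count of 2 stayed 2 (Aldoa and Gapdh).

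Counts carry no control for cell composition, and groups hold 3 to 5 libraries, so a gene that did not pass is not shown to be equal between groups. Pfkp in WT microglia rests on few counts.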
